A study of Homo sapiens with 10 samples.

Results

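Cells carrying the ETS factor ETV1 and cells labelled as carrying its relative ERG were compared directly with each other, on 7 microarrays and without the control cells. The 3 arrays labelled ERG (replicates A to C) were set against the 4 ETV1 arrays (A to D). A gene was included where 2 or more probe sets naming it alone lay above the array median on at least 3 of the 7 arrays, and it was read with all of those probe sets. This gave 6529 genes with 18094 probe sets, of 19752 genes that the array names alone and 10521 that it names with 2 or more probe sets. Another 7299 genes had 1 such probe set.

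All cells were RWPE-1, epithelial cells of human prostate that a papillomavirus has immortalised and that form no tumours, profiled on Affymetrix HG-U133 Plus 2.0 arrays. Every cell population had been infected with MSCV retroviruses and selected as stable clones, and all of them carried the biotin ligase BirA. The ERG group carried BirA and ERG, the ETV1 group carried BirA and ETV1, and the control group carried BirA alone (3 arrays, used here only as a background level). Both factors were thus driven by a retroviral vector in a line that does not carry their gene fusions, and the labels do not say whether the replicates are separate clones. Every p-value therefore reflects only how far these arrays scatter, and that scatter may be technical. The comparison asks how cells with ERG differ from cells with ETV1.

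ETS factors are transcription factors that share a DNA-binding domain recognising a GGAA core, and their activity is raised by mitogen-activated kinases. In prostate cancer, gene fusions place ERG or, less often, ETV1 under the control of promoters active in prostate, so that epithelium makes a factor it otherwise holds at a low level. ERG is a marker of endothelium in normal tissue, and ETV1 belongs with ETV4 and ETV5 to the PEA3 group, which is induced by growth factor signalling.

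In several properties of the whole array, those labelled ERG differed from the rest. As deposited, their median intensity was 50.7 ± 2.09 (SD, n = 3) against 73.8 ± 2.01 (n = 4) on ETV1 arrays. The 3′ to 5′ ratio of ACTB, a measure of RNA integrity and labelling, was 2.75 to 3.07 on them and 1.24 to 1.3 on ETV1 arrays, while that of GAPDH was 0.946 to 1.04 against 0.994 to 1.05. The added cre transcript read 29407 to 32316 against 15715 to 17419. Spearman correlations over probe sets were 0.768 to 0.795 between the groups, 0.944 to 0.961 among arrays labelled ERG and 0.975 to 0.983 among ETV1 arrays. The part of these properties in the results below was not tested. Intensities below are quantile-normalized over the 7 arrays, with an array median of 63.9, and the number of arrays limits their precision.

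The genes of the 2 factors were read first. ETV1 was lower on the arrays labelled ERG with all 4 of its tested probe sets. Its probe set 217053_x_at read 12.4, 11.2 and 24.2 on arrays A to C labelled ERG, 1720, 2010, 1880 and 1090 on ETV1 arrays A to D, and 61.7 to 115 on control arrays. Every ETV1 array lay far above every other array, and the log2 difference, ERG-labelled minus ETV1, was -5.71 (SE 0.22, limma adjusted p = 2.45e-08). The arrays labelled ERG lay under the array median with this probe set, so it had to differ, and the p-value is no support beyond that. The probe sets 206501_x_at and 217061_s_at differed by -4.38 and -5.39, and 221910_at, which read 67 to 92.9 on ETV1 arrays and 68.9 to 72.7 on control arrays, by -1.23 (limma adjusted p = 0.000779). By that last probe set the ETV1 arrays overlapped the control arrays.

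ERG itself did not follow its label in every probe set. Its single tested probe set, 222079_at, read 9.69, 6.95 and 10.9 on the arrays labelled ERG, 202, 169, 169 and 177 on ETV1 arrays, and 168 to 189 on control arrays. It was lower on the arrays labelled ERG, with a log2 difference of -2.95 (SE 0.11, limma adjusted p = 2.38e-08). Of the 7 arrays only the ETV1 arrays lay above the array median with it, so it had to differ, and this p-value is no support beyond that. The dim probe set 211626_x_at went the other way, at 29.9, 42.7 and 60.9 against 6.73, 18.9, 6.76 and 9.49, and the dim 213541_s_at read 30.3, 42.3 and 49.4 against 26.1, 12.4, 9.34 and 9.27. The remaining one, 241926_s_at, read 33, 19.7 and 39.7 against 18.4, 18.3, 23.1 and 12.3. These 3 stayed under the array median everywhere and were not tested, and all directions below rest on a label that ERG's own probe sets did not settle.

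**Figure D1:**
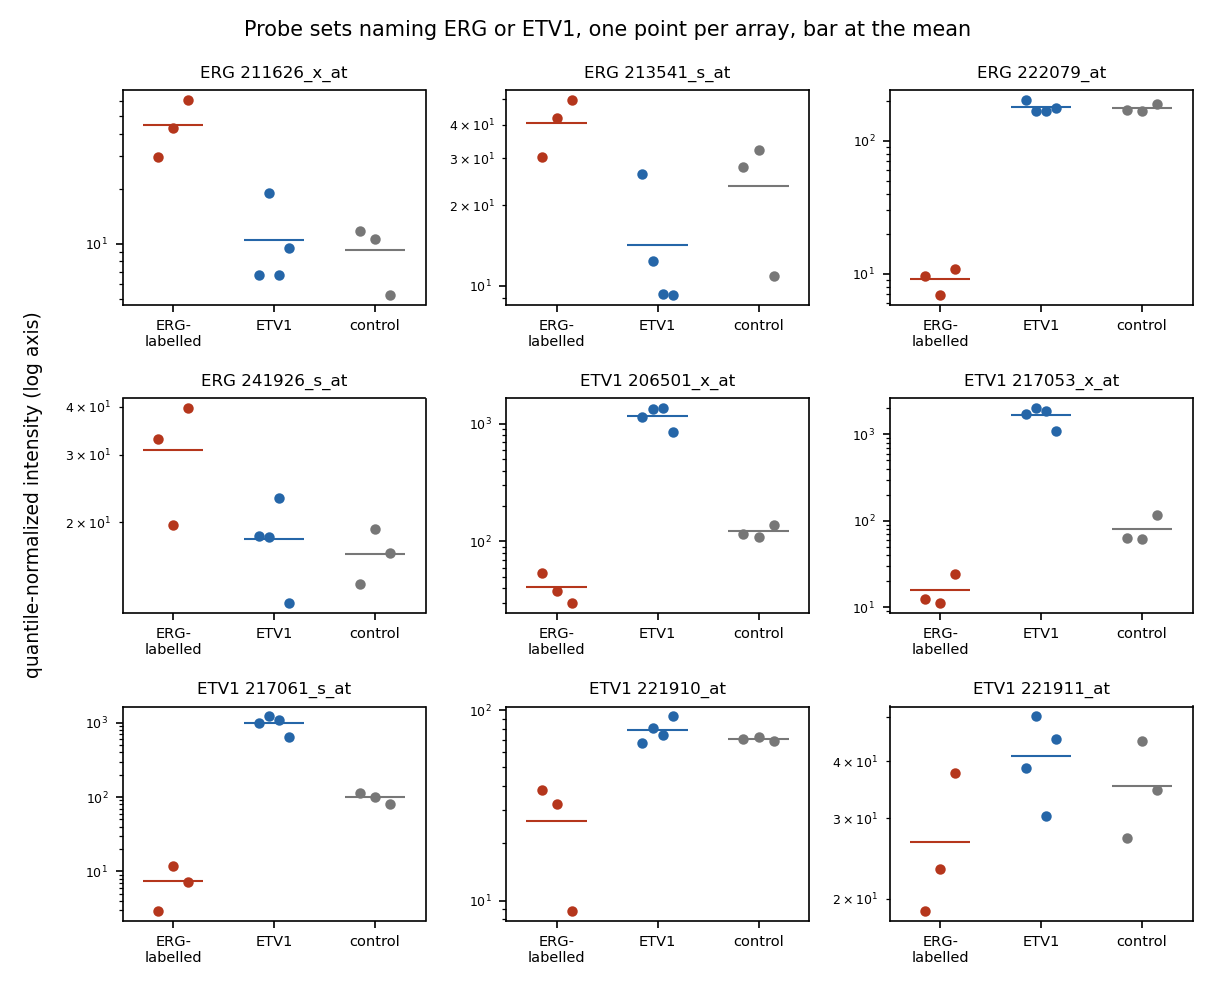
Quantile-normalized intensity (log axis) of each probe set naming ERG or ETV1 on the arrays labelled ERG (3), the ETV1 arrays (4) and the control arrays (3), with a bar at each group's mean. The ETV1 probe sets 206501_x_at, 217053_x_at and 217061_s_at sit between 643 and 2010 on ETV1 arrays and at or below 54 on the arrays labelled ERG, while the ERG probe set 222079_at is lowest on the arrays labelled ERG.

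In the cells labelled ERG, 15 of 21 genes of mitosis and 8 of 22 of DNA replication were higher in every probe set. Lower in every probe set were 10 of 24 TGF-beta and activin genes, 5 of 10 basal and 3 of 7 luminal epithelial genes. Single genes differed by up to -5.89 on the log2 scale in the mean of their probe sets (GPX3) and up to 3.86 the other way (PLEKHA5, named for its size after the values were seen). Of the 25393 probe sets tested, 10758 passed higher (42.4%) and 9304 passed lower (36.6%) at a limma adjusted p of 0.05. With most probe sets on one side or the other, a gene was called only where every one of its tested probe sets passed the same way. By that rule 1173 genes were higher (18%) and 870 lower (13.3%), and 2267 genes (34.7%) had probe sets passing in opposite directions. List counts below are to be read against these shares, and several lie near them. In 1964 genes (30.1%) some probe sets passed, all one way, and in 255 (3.91%) none did. The ERG-labelled and ETV1 arrays did not overlap in any probe set of 1090 of the higher and 796 of the lower genes. Both counts are of genes already called because every probe set passed, so they are no independent support for the calls. No such count is given for the genes that were not called.

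These counts lean on the filter and on the arrays. A probe set above the median in 1 group only had to differ: of 1576 that were so on the arrays labelled ERG all passed higher, and of 1521 on ETV1 arrays 1509 passed lower. Where such a probe set is given with a p-value, that value is no support beyond the filter. Of the 13082 above the median on all 7 arrays, 5212 passed higher and 4365 lower. With only such probe sets, 4498 genes remained, of which 807 were higher, 556 lower and 1271 mixed. Without ERG-labelled replicate A 714 genes were higher and 816 lower. The share of higher genes among those called was 57.4%. It was 65.7% with the intensities as deposited, 82.3% with arrays centred on their median, and 46.7% to 48% when an array labelled ERG was left out. A probe set bright on only the 2 arrays that remain cannot then reach 3 arrays, and the part of this in the shift was not tested.

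The 15 genes with the largest rise in every probe set, on arrays that did not overlap, were CRNDE, IGF2BP1, MED18, DNAJC12, C6orf141, TRMT44, S100A8, CEP192P1, DHRS2, C8orf88, C1orf53, FAR2, COQ3, C9orf40 and MRC2. CRNDE, a long noncoding RNA known from colorectal and other tumours, read 2070, 2130 and 1520 on the arrays labelled ERG with 238021_s_at, 214, 209, 221 and 119 on ETV1 arrays, and 1180 to 1290 on control arrays. Its second probe set, 238022_at, read 909, 991 and 594 against 84.4, 65.7, 77.4 and 42.2, with 346 to 393 on control arrays. The ETV1 arrays were the low ones in both, below control, and the log2 differences were 3.24 (SE 0.21) and 3.34 (SE 0.22), with limma adjusted p = 4.11e-07 and 4.36e-07. DNAJC12, a co-chaperone of aromatic amino acid hydroxylases, had the same order in 3 probe sets. Its 218976_at read 1100, 1420 and 1080 against 149, 172, 142 and 198, with 421 to 465 on control arrays, and the 3 differences ran from 2.75 to 3.43.

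IGF2BP1 and MED18 were high on the arrays labelled ERG alone. IGF2BP1, an oncofetal RNA-binding protein, read 410, 291 and 435 with 227377_at, 12, 35.3, 42.6 and 39 on ETV1 arrays, and 46.7 to 60.4 on control arrays. Its 223689_at read 177, 182 and 138 against 2.04 to 10.5, and the log2 difference of the brighter probe set was 3.07 (SE 0.25, limma adjusted p = 1.72e-06). MED18, a subunit of the Mediator complex, read 575, 652 and 470 with 221650_s_at, against 11.9, 22, 15 and 26.8 on ETV1 arrays and 1.03 to 1.1 on control arrays. In both genes the ETV1 and the control arrays lay under the array median in every probe set, so their folds rest on a low level in 1 group. Their tested probe sets thus had to differ, and the p-value of IGF2BP1 is no support beyond that.

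S100A8, a calcium-binding alarmin of neutrophils and of stressed epithelium, was bright in all groups by 1 of its 2 tested probe sets. This one, 202917_s_at, read 4650, 9010 and 5380 on the arrays labelled ERG, 876, 805, 813 and 2000 on ETV1 arrays, and 547 to 632 on control arrays. ETV1 replicate D was the highest ETV1 array, and the log2 difference was 2.54 (SE 0.33, limma adjusted p = 4.64e-05). The other, 214370_at, read 261, 461 and 282 against 7.3 to 35.9 on ETV1 and 5.69 to 14.3 on control arrays, under the array median in both. COQ3, a methyltransferase of ubiquinone synthesis, was the gene of the 15 with both probe sets above the median on all 7 arrays. It read 1920, 2010 and 1350 with 223515_s_at, against 342, 352, 337 and 286 on ETV1 arrays and 529 to 643 on control arrays, and its log2 differences were 2.34 and 2.44. DHRS2, a mitochondrial dehydrogenase, read 658, 1160 and 1070 with 214079_at against 58.5 to 105. MRC2, a collagen-binding endocytic receptor, read 525, 509 and 644 with 37408_at against 93.8 to 118, and 100 to 115 on control arrays. In 11 of the 15 genes at least 1 probe set was above the median in 1 group only.

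The 15 genes with the largest fall were GPX3, RNA45SN5, SLC43A3, SLITRK6, GPR153, KCNMA1, LIMCH1, OSBP2, ZYX, LINC00957, ZFP82, BCL9L, GPR137, HS3ST1 and ATP6V0D2. GPX3, the secreted glutathione peroxidase, had the largest mean difference of all 6529 genes. Its 201348_at read 7.04, 10.3 and 6.3 on the arrays labelled ERG, 1820, 1810, 1930 and 1370 on ETV1 arrays, and 39.2 to 58.8 on control arrays. Its 214091_s_at read 14.5, 24.3 and 14.4 against 1650, 1720, 1850 and 1270, with 141 to 381 on control arrays. ETV1 arrays were the high ones and arrays labelled ERG the low ones, each apart from control, and the log2 differences were -6.18 (SE 0.14) and -5.60 (SE 0.16), with limma adjusted p = 1.47e-09 and 5.11e-09. Both probe sets were above the array median on ETV1 arrays only and so had to differ, and these p-values are no support beyond that.

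SLITRK6, a transmembrane protein of neurite growth, was lower in 3 probe sets. The brightest, 232481_s_at, read 38.4, 31.1 and 25.4 on the arrays labelled ERG, 2180, 1830, 1870 and 2160 on ETV1 arrays, and 391 to 472 on control arrays. Its differences ran from -5.41 to -3.32, and control arrays lay between the groups. LIMCH1, an actin-associated activator of non-muscle myosin, had the same order in its 3 tested probe sets. Its 212327_at read 45.1, 47.6 and 46.6 against 1040, 973, 973 and 1040, with 159 to 198 on control arrays (log2 difference -4.03, SE 0.10, limma adjusted p = 1.91e-09). That probe set was above the array median on ETV1 arrays only and so had to differ, and this p-value is no support beyond that. The dim LIMCH1 probe set 232457_at, which was not tested, read 44.3, 63.6 and 44.9 against 7.97 to 25.5. HS3ST1, which adds a rare sulfate group to heparan sulfate, read 90.2, 101 and 70.9 with 205466_s_at, against 746, 771, 772 and 244 on ETV1 arrays and 27.6 to 35.5 on control arrays. ETV1 replicate D was the low ETV1 array, and the log2 difference was -2.53 (SE 0.35, limma adjusted p = 8.32e-05).

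Other falls set the arrays labelled ERG against both remaining groups. ZYX, the focal adhesion protein zyxin, read 278, 254 and 252 with 200808_s_at, 2020, 1850, 1990 and 1870 on ETV1 arrays, and 1410 to 1520 on control arrays. Its 215706_x_at read 117, 67.5 and 82.4 against 2030 to 2370, and the log2 differences were -2.81 and -4.40 (SE 0.10 and 0.16). BCL9L, a coactivator of beta-catenin, read 412, 294 and 356 with 227616_at against 2150 to 2250, with 1380 to 1540 on control arrays. GPR137, an integral membrane protein of lysosomes, read 1 on all arrays labelled ERG with 221966_at, the floor of the deposited values, against 756 to 1080 on ETV1 and 1020 to 1110 on control arrays. Its 43934_at read 68.3, 53.3 and 57.1 against 3050 to 3610. ZYX, BCL9L, GPR153, LINC00957 and RNA45SN5 were above the median on all 7 arrays in both probe sets, and 9 of the 15 genes had a probe set above it in 1 group only.

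RNA45SN5 is a copy of the 45S ribosomal RNA precursor, which the genome holds in many near-identical copies, so the reading cannot be given to 1 of them. Its 225767_at read 189, 221 and 81 on the arrays labelled ERG, 4960, 3890, 4970 and 3540 on ETV1 arrays, and 243, 1380 and 168 on control arrays. The 5′ probe set of 18S ribosomal RNA did not follow it, at 834 to 1100 on the arrays labelled ERG, 276 to 874 on ETV1 arrays and 79.4 to 159 on control arrays. These 18S values are intensities as deposited and not quantile-normalized, so their scale differs from that of 225767_at.

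**Figure D2:**
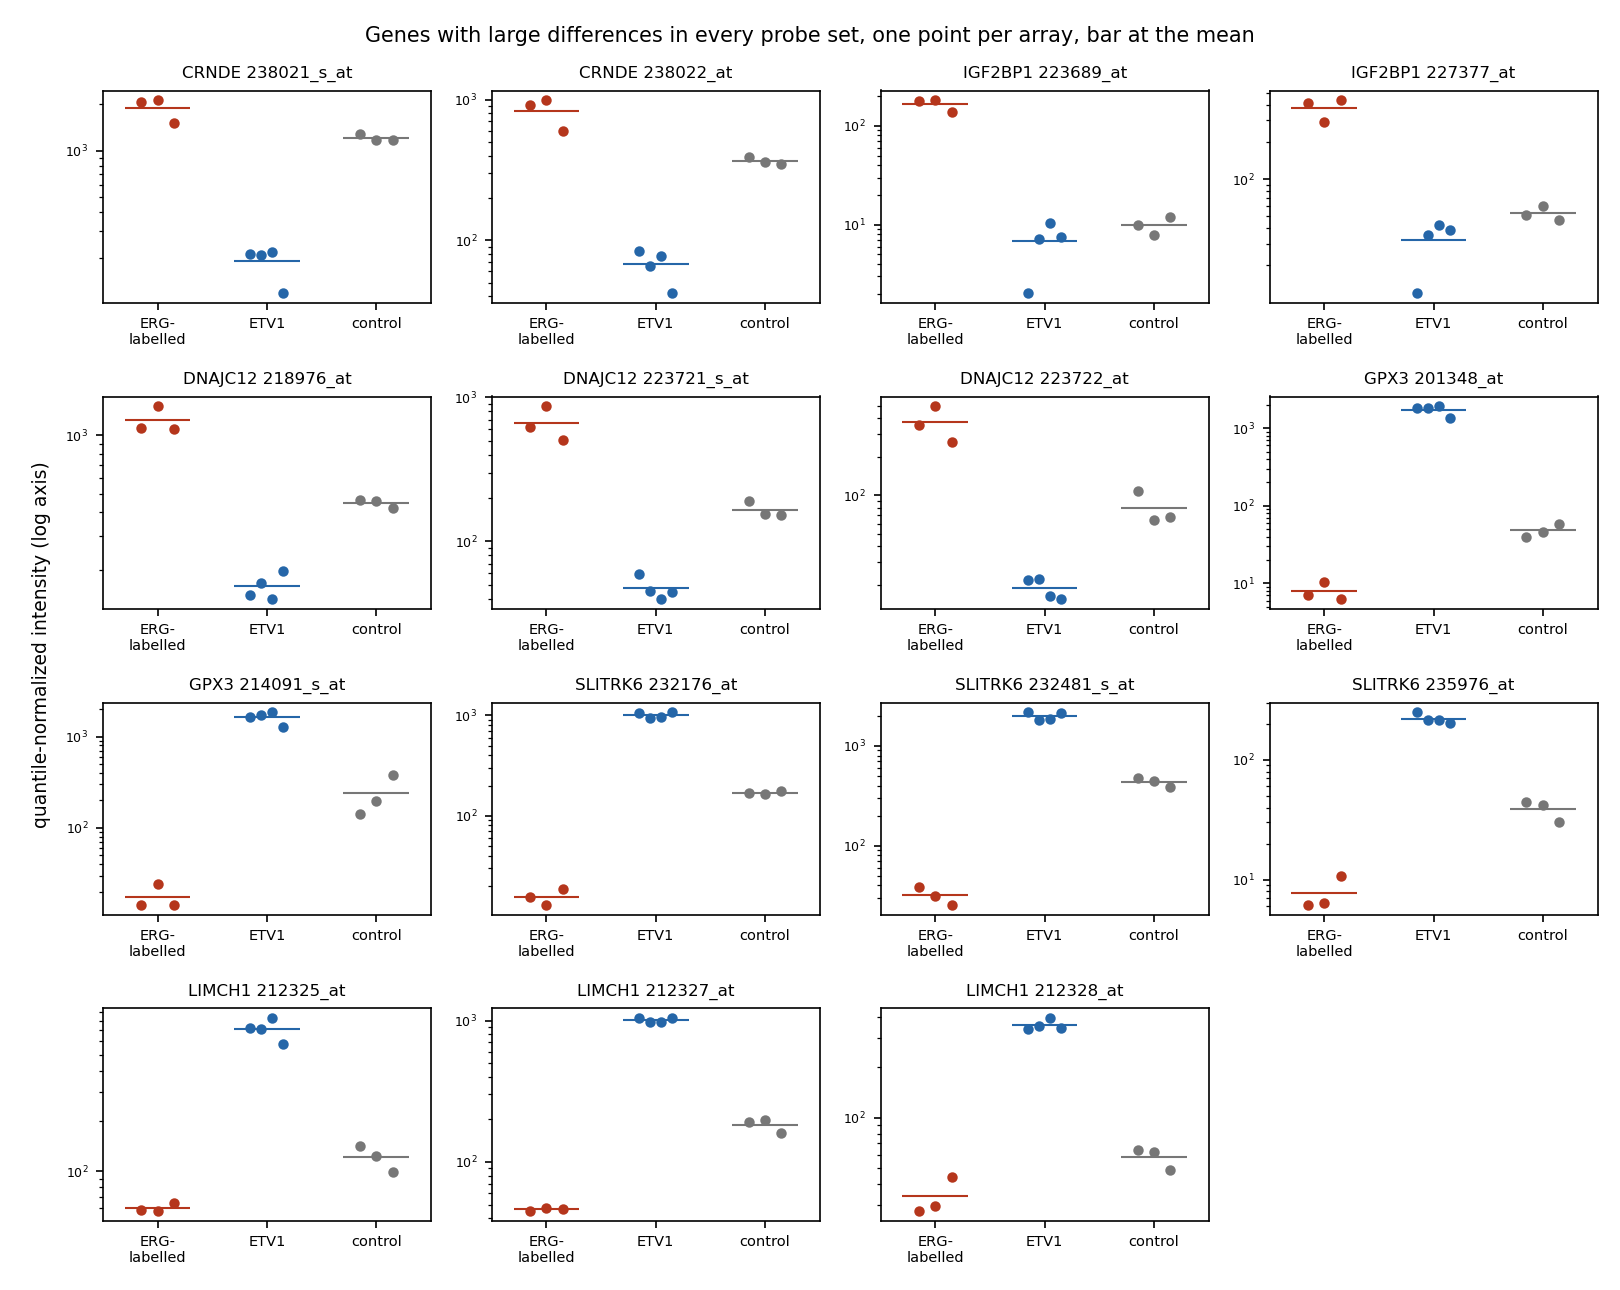
Quantile-normalized intensity (log axis) of the tested probe sets of CRNDE, IGF2BP1, DNAJC12, GPX3, SLITRK6 and LIMCH1 on each array, with a bar at each group's mean. The arrays labelled ERG and the ETV1 arrays do not overlap in any panel, and control arrays lie between them for CRNDE, DNAJC12, GPX3, SLITRK6 and LIMCH1.

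Promoter sequence is shown for 4 genes called in every tested probe set. KIF23 of mitosis and POLA2 of DNA replication were higher. LTBP1 of the TGF-beta list and GPX3, the gene with the largest difference, were lower. All 4 genes had a probe set above the array median in 1 group only, which had to differ. Each sequence is the 250 bases before the gene's start on its own strand, from RefSeq on GRCh38.p14: chr15:69414099-69414348 for KIF23, chr11:65261712-65261961 for POLA2, chr5:151020341-151020590 for GPX3 and chr2:32946703-32946952 for LTBP1, all on the plus strand. Capitals mark the ETS core GGAA on either strand (GGAA or TTCC).
KIF23: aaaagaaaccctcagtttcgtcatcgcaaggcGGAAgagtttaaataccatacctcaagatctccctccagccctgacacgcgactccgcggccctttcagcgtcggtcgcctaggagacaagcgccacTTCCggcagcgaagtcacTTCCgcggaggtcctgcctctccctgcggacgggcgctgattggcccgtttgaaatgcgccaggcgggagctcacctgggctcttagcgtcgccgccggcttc
POLA2: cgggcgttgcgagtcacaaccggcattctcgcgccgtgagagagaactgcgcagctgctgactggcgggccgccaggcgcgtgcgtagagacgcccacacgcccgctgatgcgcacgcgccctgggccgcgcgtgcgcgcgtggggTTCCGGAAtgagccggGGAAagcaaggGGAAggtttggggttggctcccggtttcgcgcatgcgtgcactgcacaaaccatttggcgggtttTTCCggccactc
GPX3: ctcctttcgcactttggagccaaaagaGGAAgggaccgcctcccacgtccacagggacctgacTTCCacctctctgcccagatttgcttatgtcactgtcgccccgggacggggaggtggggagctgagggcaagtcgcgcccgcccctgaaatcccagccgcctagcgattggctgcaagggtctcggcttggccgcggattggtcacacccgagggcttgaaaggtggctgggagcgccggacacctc
LTBP1: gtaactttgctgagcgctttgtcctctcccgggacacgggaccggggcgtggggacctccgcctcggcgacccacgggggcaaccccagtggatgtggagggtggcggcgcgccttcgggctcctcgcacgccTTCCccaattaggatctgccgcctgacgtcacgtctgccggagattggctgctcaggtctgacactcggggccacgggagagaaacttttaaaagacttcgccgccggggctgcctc
KIF23 held 3 cores, POLA2 5, GPX3 2 and LTBP1 1. The longer ETS motif CCGGAAGT, which contains the core, occurred on either strand once in KIF23 and not in the other 3 windows.

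Of the 6529 genes 5411 had a promoter entry, and CCGGAAGT on either strand was found in 7.49% of the higher genes (73 of 974), 6.05% of the lower (42 of 694) and 7.5% of those with opposite probe sets. The share was 7.56% over the 5411 genes and 3.64% over all 27305 promoters of the table. The bare core GGAA was in 92.7% of the higher and 90.6% of the lower genes, against 92.8% of all promoters. TGACTCA, the site of AP-1, was in 2.46% and 2.31%, against 2.33% of the 5411 genes and 4.16% of all promoters. A match is a run of letters and not a site of binding.

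Mitosis genes were mostly higher in the cells labelled ERG, and of 21 genes 15 passed higher in every probe set, none passed lower, and 2 had opposite probe sets. The median log2 difference of the 21 was 1.26, against 0.06 over all 6529 genes. CDK1, the kinase that starts mitosis, read 2720, 3500 and 3340 with 203213_at on the arrays labelled ERG, 625, 505, 545 and 389 on ETV1 arrays, and 770 to 863 on control arrays. All 3 of its tested probe sets were above the median on all arrays and did not overlap between groups, with log2 differences of 2.60 (SE 0.16), 1.92 (SE 0.16) and 1.88 (SE 0.15) and limma adjusted p = 3.43e-07, 2.17e-06 and 1.58e-06. With the control arrays in the fit not every tested probe set of CDK1 passed, with a mean of 1.62. KIF23, a kinesin of the central spindle that cells need to divide, read 575, 534 and 664 with 204709_s_at against 136, 165, 151 and 81.1, with control at 85.9 to 143. Its log2 differences were 2.06 and 1.94.

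The other mitosis genes that rose in every probe set covered several steps. Cyclins were among them, CCNB1 at 1.97 and CCNA2 at 1.68 in the mean of their probe sets, as were the checkpoint gene MAD2L1 at 1.66, the centromere genes CENPI at 1.74 and CENPF at 1.25, the kinases NEK2 at 1.38 and AURKB at 1.09, the phosphatase CDC25C at 1.32 and the topoisomerase TOP2A at 1.03. BUB1 and NUSAP1 had opposite probe sets, and ECT2, an exchange factor of cell division, had a mean of -1.04 with some of its probe sets passing. Among listed genes with 1 tested probe set, 22 of 25 passed higher and 2 lower, against 42.4% and 36.6% of all tested probe sets. With probe sets above the median on all 7 arrays 13 of 16 were higher, and 12 to 19 of 21 were so with other scalings.

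DNA replication genes rose in part. Of 22, 8 passed higher, 1 lower and 7 had opposite probe sets, with a median of 0.65 that was 0.44, 0.43 and 0.35 without ERG-labelled replicate A, B or C. GINS2, of the replicative helicase complex, read 1060, 969 and 817 with 221521_s_at, 287, 284, 277 and 325 on ETV1 arrays and 1230 to 1280 on control arrays. By this probe set the ETV1 arrays were the low ones, and the log2 difference was 1.64 (SE 0.12, limma adjusted p = 9.42e-07). By 1557595_at the arrays labelled ERG stood alone, at 106, 87.7 and 77.5 against 1.08 to 6.43 on ETV1 and 1.08 to 6.2 on control arrays. POLA2, the second subunit of DNA polymerase alpha, read 207, 235 and 190 with 204441_s_at against 52.6, 54.8, 42.3 and 55.2, with 54.9 to 78.4 on control arrays, a log2 difference of 1.75 (SE 0.12). RRM2, which makes deoxynucleotides, was at 1.97, GINS3 at 1.70, MCM10 at 1.53 and CDC6, which licenses origins, at 1.04.

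TYMS, thymidylate synthase, was the 1 replication gene that passed lower. It read 2080, 2090 and 2340 with 202589_at against 2600, 2640, 2460 and 3120, and its log2 differences were -0.31 and -0.31 (limma adjusted p = 0.0312 and 0.0449). That call did not hold without ERG-labelled replicate A or B or without ETV1 replicate A, B or D, and the mean of its probe sets turned to 0.36 with intensities as deposited and 0.79 with median centring. FEN1, RRM1, MCM4, ORC2, RFC1, E2F1 and CDT1 had opposite probe sets. Leaving out ERG-labelled replicate A or B left 5 of 19 replication genes higher, and with median centring 13 of 22 were.

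**Figure D3:**
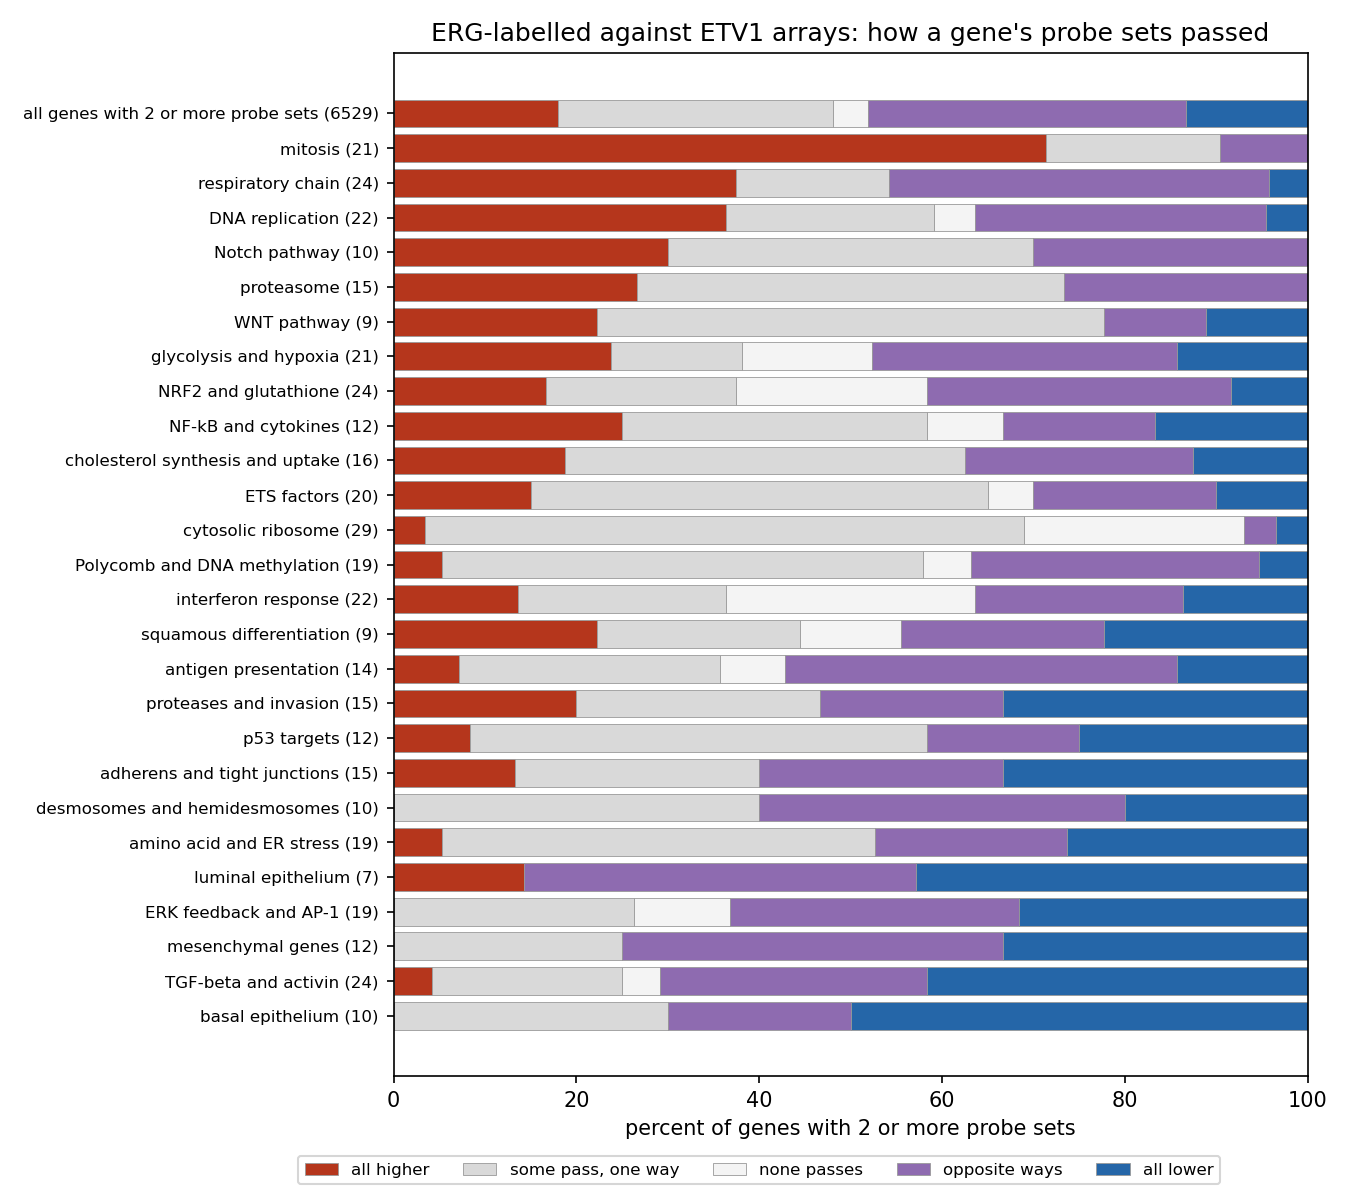
Share of genes (percent) in each pathway or epithelial list of 7 or more genes, and over all 6529 genes, whose tested probe sets all passed higher on the arrays labelled ERG, all passed lower, passed in opposite directions, passed in part or did not pass, with the number of genes in brackets. Among the lists plotted, mitosis has the widest band of higher genes (15 of 21) and basal epithelium of lower genes (5 of 10), while the band of opposite probe sets is wide in most lists.

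Respiratory chain genes passed higher more often than lower, with many mixed readings. The share of proteasome genes called higher lay near that of all genes. Of 24 respiratory chain subunits 9 passed higher, 1 lower and 10 had opposite probe sets, with a median of 0.42 that was 0.23, 0.22 and 0.24 without ERG-labelled replicate A, B or C. NDUFB7, a subunit of complex I, read 3680, 4370 and 2090 with 202839_s_at against 770, 806, 804 and 822, with 665 to 795 on control arrays (log2 difference 1.99, SE 0.21, limma adjusted p = 1.13e-05). COX7B, a subunit of cytochrome oxidase, read 9370, 11700 and 8120 with 202110_at against 3990, 3750, 3650 and 4410 (1.29, SE 0.14). Of 15 proteasome subunits 4 passed higher, none lower and 4 had opposite probe sets, against shares of 18%, 13.3% and 34.7% over all 6529 genes. PSMA7, of the core alpha ring, read 4860, 5050 and 4770 with 216088_s_at against 1610, 2010, 1970 and 1510, and 2880 to 3160 on control arrays. Without ERG-labelled replicate A, 3 of 21 respiratory chain genes and 2 of 15 proteasome genes were higher, without replicate B 5 and 2, and without replicate C 6 of 21 and 6 of 15, so both counts lean on these arrays. As deposited 7 and 8 genes of these lists were higher, and with median centring 13 and 10.

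The calls of ribosomal protein genes depended on the scaling. Of 29, 1 passed higher and 1 lower with a median of 0.01, while 16 passed higher with intensities as deposited and 19 with median centring, and none lower in either. The 1 higher call was lost without ERG-labelled replicate A or B or ETV1 replicate A, B or C. RPL29 had differences of -0.55 and -0.42, and its mean turned to 0.062 as deposited and 0.49 with median centring. Over all 6529 genes the median difference was 0.06, and it was 0.12 as deposited and 0.55 with median centring, and -0.095, -0.088 and -0.11 without ERG-labelled replicate A, B or C. List medians are therefore also given relative to the median of all genes under each scaling: for mitosis 1.21 in the quantile-normalized values and 1.30 in both others, for DNA replication 0.60 and 0.76, and for the respiratory chain 0.36 and 0.59.

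TGF-beta and activin genes were lower in the cells labelled ERG in 10 of 24 cases. This pathway signals from secreted, latent ligands through paired receptor kinases to SMAD factors, restrains epithelial growth and drives matrix production. Of the others 1 passed higher and 7 had opposite probe sets, and the median of the 24 was -0.94. Relative to all genes that median was -1.05 both as deposited, with 10 genes lower, and with median centring, with 6 lower. With probe sets above the median on all arrays it was -0.46, and 6 of 18 genes were lower. Listed genes with 1 tested probe set were divided, with 3 of 10 passing higher and 4 lower.

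Among its ligands, INHBA, the activin A subunit, read 156, 263 and 279 with 210511_s_at, 886, 975, 945 and 346 on ETV1 arrays, and 91.9 to 131 on control arrays. ETV1 replicate D was the low ETV1 array, close to the arrays labelled ERG, and the log2 differences of the 2 tested probe sets were -1.63 and -2.10 (SE 0.34 and 0.35, limma adjusted p = 0.00138 and 0.000278). BMP7 was lower at -1.72. BMP2 was the gene of the list that passed higher, at 286, 282 and 282 with 205289_at against 114, 120, 122 and 109, and 76 to 111 on control arrays (1.18, SE 0.10, limma adjusted p = 1.9e-06).

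Of the proteins that hold the ligand in the matrix, LTBP1 read 70.4, 79.8 and 91.8 with 202729_s_at, 671, 650, 662 and 581 on ETV1 arrays, and 437 to 501 on control arrays. Both of its probe sets were lower, at -2.77 (SE 0.12) and -2.29 (SE 0.14), with limma adjusted p = 3.51e-08 and 2.29e-07. At least 1 of them was above the array median in 1 group only and so had to differ. The receptor TGFBR2 was lower at -2.26 and the co-receptor TGFBR3 at -0.80, while TGFBR1, the kinase that phosphorylates SMADs, had no probe set passing, at 0.04. Of the targets, THBS1, thrombospondin, was lower at -3.42, the basement membrane collagens COL4A2 and COL4A1 at -2.16 and -1.32, and the matricellular CCN1 at -1.25. SMAD2 and SMAD4 had opposite probe sets, and SMAD3 had some passing, all lower, with a mean of -1.13.

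Matrix genes of mesenchymal type followed in part. Of 12 genes 4 passed lower, none higher and 5 had opposite probe sets, with a median of -0.16 that was 0.06 over the 4 genes above the median on all arrays, of which 1 was lower. FN1, SPARC and THY1, which passed lower, each had a probe set above the array median in 1 group only, which had to differ. The median was -1.04, -1.05 or -1.24 over 9 genes without ERG-labelled replicate A, B or C, without ETV1 replicate B 0.005 and without ETV1 replicate D -0.52. FN1, fibronectin, was lower with all 5 tested probe sets. Its 210495_x_at read 438, 436 and 543 on the arrays labelled ERG, 4840, 4990, 5250 and 2190 on ETV1 arrays, and 1460 to 1480 on control arrays. ETV1 replicate D was lower than the other ETV1 arrays and still above control, and the difference was -3.08 (SE 0.28, limma adjusted p = 3.37e-06). SPARC, a collagen-binding glycoprotein, read 16.9, 35.2 and 21 with 200665_s_at against 244, 286, 294 and 160, with 63 to 84 on control arrays (-2.69, SE 0.22). COL1A1, COL5A1, COL6A2, DCN and LOX had opposite probe sets.

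Basal epithelial genes were lower where they were called, and luminal genes were mostly so. Of 7 luminal genes 3 passed lower (KLK4 at -1.82, CD24 at -1.53 and TRPM8 at -1.065), with a median of -0.14. Another passed higher (KRT7 at 0.54) and 3 had opposite probe sets. KLK4, TRPM8 and KRT7 each had a probe set above the array median in 1 group only. With 1 tested probe set, 2 of 9 luminal genes passed higher and 3 lower, and of 5 basal genes 1 higher and 2 lower. Of 10 basal genes 5 passed lower, none higher and 2 had opposite probe sets, with a median of -1.39. The median relative to all genes was -1.44, and -1.30 in the other scalings, but there 2 genes were higher and 2 lower as deposited, and 3 higher and none lower with median centring. ITGB4, the hemidesmosome integrin, read 122, 106 and 111 with 204989_s_at, 3490, 3890, 4020 and 3390 on ETV1 arrays, and 1010 to 2160 on control arrays. Its 204990_s_at read 1210, 1010 and 1320 against 2980 to 3470. The log2 differences were -4.85 and -1.44 (SE 0.11 and 0.12, limma adjusted p = 1.49e-09 and 2.17e-06), so these probe sets agreed in sign and not in size. The third tested one differed by -2.56, and the dim 230704_s_at, which was not tested, read 64, 64.1 and 52.8 against 1.07 to 8.41. JAG1, a Notch ligand, was lower with 5 probe sets. Its 209098_s_at read 176, 170 and 206 against 1620, 1880, 1860 and 1140, with 265 to 293 on control arrays (-3.01, SE 0.17). The laminin receptor ITGA6 was lower at -1.79 and TRIM29 at -1.40. ITGB4 and JAG1 did not keep every probe set with median centring, with means of -2.21 and -1.10.

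EGFR, the receptor of epidermal growth factor, was lower in all 7 of its tested probe sets, with differences from -2.73 to -0.44. Its 201983_s_at read 1580, 1290 and 2270 against 3370, 4130, 4080 and 3780, and 952 to 1010 on control arrays (-1.19, SE 0.18, limma adjusted p = 0.000131). Not every probe set passed without ERG-labelled replicate C or without ETV1 replicate A or D, with means of -1.38, -1.47 and -1.38, or in either other scaling. The basal keratins KRT14 and KRT5 and the luminal keratins KRT8 and KRT18 had 1 tested probe set each. KRT14 read 6990 to 8620 against 13100 to 14200 and KRT5 8460 to 9210 against 6620 to 8380, and KRT8 and KRT18 read 1900 to 2630 against 1970 to 2090 and 5820 to 7020 against 4750 to 7210. All 4 were bright in both groups.

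Junction genes split by member. Of 15 genes of adherens and tight junctions 2 passed higher, 5 lower and 4 opposite ways, and of 10 of desmosomes and hemidesmosomes 2 passed lower and 4 opposite ways. As deposited 2 and 1 genes of these lists were lower, and with median centring also 2 and 1. CDH1, E-cadherin, read 2310, 2040 and 2640 with 201131_s_at against 3630, 3690, 3760 and 4340 (-0.73, SE 0.12), and 28.5, 41.9 and 29.2 with 201130_s_at against 178 to 194 (-2.05, SE 0.12). The call was lost in either other scaling, with means of -1.12 and -0.69. CLDN1, a tight junction claudin, read 195, 244 and 259 with 222549_at against 1420, 1350, 1320 and 1690, with 611 to 857 on control arrays (-2.56, SE 0.13, limma adjusted p = 1.21e-07). The matriptase gene ST14 went the other way, at 859, 1130 and 943 with 216905_s_at against 126, 152, 128 and 127, and 191 to 270 on control arrays (2.73, SE 0.13), while its inhibitor SPINT1 was lower at -1.50. PKP3, a desmosome plaque protein, was lower at -1.94 and DSG3, a desmosomal cadherin, at -1.25, the latter without every probe set passing in either other scaling, at -0.84 and -0.41.

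Genes that ERK signalling induces and that restrain it were lower where called. ERK is the kinase through which growth factors reach PEA3 factors, and its phosphatases and AP-1 factors are made in response. Of 19 genes 6 passed lower, none higher and 6 opposite ways, with a median of -0.30, which was 0.32 with median centring and, relative to all genes, -0.36, -0.24 as deposited and -0.24 with median centring. As deposited 3 genes were lower and 1 higher, and with median centring 1 and 1. Its median was -0.52, -0.51 or -0.50 without ERG-labelled replicate A or B or ETV1 replicate D. Listed genes with 1 tested probe set were divided, with 5 of 14 passing higher and 6 lower. DUSP4, a nuclear ERK phosphatase, was lower with 3 probe sets. Its 204014_at read 145, 144 and 147 on the arrays labelled ERG, 984, 964, 907 and 719 on ETV1 arrays, and 111 to 127 on control arrays. The arrays labelled ERG lay just above control and ETV1 arrays well above both, with a difference of -2.49 (SE 0.13, limma adjusted p = 1.05e-07). DUSP6 was lower at -0.75, DUSP1 at -1.59 and the inhibitor SPRY1 at -0.85. JUND, an AP-1 subunit, was lower at -1.46, with 1940 to 2710 on arrays labelled ERG with 203752_s_at, 4600 to 5490 on ETV1 and 6360 to 6550 on control arrays. Its call was lost in either other scaling, at -1.35 and -0.92.

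Proteases and their inhibitors went both ways. Of 15 genes 3 passed higher, 5 lower and 3 opposite ways, with a median of -0.94 that was 0.07 with median centring and -0.48 relative to all genes there. TIMP3, an inhibitor of metalloproteases, was lower with 4 probe sets, at 196, 234 and 196 with 201148_s_at against 870, 798, 858 and 1210, with 320 to 390 on control arrays (-2.06, SE 0.15, limma adjusted p = 8.99e-07). SERPINE2, an inhibitor of thrombin and plasminogen activators, was lower at -2.00, ADAM9 at -1.73, ADAM10 at -1.27 and TFPI2 at -1.26. HPSE, heparanase, was higher, at 312, 244 and 277 with 222881_at against 140, 118, 137 and 95.5 (1.09, SE 0.14), and so was the kallikrein KLK7 at 0.97. PLAU, urokinase, read differently by probe set, with 211668_s_at at 292, 434 and 421 against 1310 to 1910 (-2.10) and 205479_s_at at 1700, 2370 and 3010 against 1600 to 2250 (0.22, limma adjusted p = 0.306). Without ERG-labelled replicate A, B or C 1 of 14 genes was higher in each case, and without A 3 were lower. With either other scaling 2 were lower.

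Cytokine and interferon genes did not move as groups. Of 12 NF-kB and cytokine genes 3 were higher and 2 lower, and of 22 interferon response genes 3 were higher, 3 lower and 5 opposite, with no probe set passing in 6. As deposited no interferon gene was lower, and with median centring 10 were higher and none lower, while the lower NF-kB genes became 1 in either scaling and without ERG-labelled replicate B. IL1B, interleukin-1 beta, read 2860, 4090 and 4460 with 205067_at against 1600, 1420, 1520 and 897, with 694 to 824 on control arrays (1.48, SE 0.22, limma adjusted p = 0.000114). PTGS2, inducible cyclooxygenase, was lower, at 224, 193 and 223 with 204748_at against 506, 451, 470 and 448 (-1.08, SE 0.11). IRF1, an interferon-induced factor, read 560, 645 and 529 with 238725_at against 101, 93.5, 96.1 and 108 (2.36, SE 0.11), and 1530 to 1660 with 202531_at against 723 to 824. RSAD2, an antiviral enzyme, read 779, 968 and 1060 with 213797_at against 1470, 1480, 1550 and 2340, with 247 to 374 on control arrays, a mean of -0.83 that did not pass as deposited (-0.22) and was 0.21 with median centring. In antigen presentation 1 of 14 genes was higher and 2 lower, with 6 opposite, and 5 were higher as deposited and 6 with median centring. Without ERG-labelled replicate A 1 was lower.

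Stress and metabolic genes included single large differences. HSPA5, the chaperone of the endoplasmic reticulum, read 4680, 4430 and 5820 with 211936_at against 14000, 15400, 14800 and 13300, with 12200 to 12900 on control arrays (-1.54, SE 0.12, limma adjusted p = 1.65e-06). SLC7A11, the cystine transporter, was lower with 3 probe sets, at 742, 489 and 1040 with 217678_at against 2240 to 2580, and its call was lost as deposited, with a mean of -0.95, and with median centring, at -0.52. Of 19 amino acid and stress genes 1 was higher and 5 lower, against 4 and 2 as deposited and 5 and 1 with median centring. SREBF2, the master factor of cholesterol synthesis, was lower with 3 probe sets, at 153, 145 and 157 with 201247_at against 568, 576, 519 and 628 (-1.81, SE 0.11). NPC1, which moves cholesterol out of lysosomes, was lower at -1.31, a call lost with median centring at -0.71, while SOAT1, which esterifies cholesterol for storage, was higher at 1.35 and HMGCS1, an early enzyme of the synthesis, at 0.68. LDHB, a lactate dehydrogenase subunit, read 10400, 9680 and 10400 with 201030_x_at against 5170, 5450, 5390 and 4950 (0.95, SE 0.10), and LOXL2, a lysyl oxidase induced by hypoxia, was lower at -1.61.

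Genes of the ETS family were called no more often than all genes. Of 20 genes 3 were higher, 2 lower and 4 opposite, against shares of 18%, 13.3% and 34.7% over all 6529 genes. Their median was -0.06, and 0.37 with median centring, where 6 were higher and 1 lower. Leaving out ERG-labelled replicate A, B or C left 1 of 18 higher, with a median of -0.47, -0.34 or -0.45, and without ETV1 replicate A or D the median was -0.10 or -0.12, and without ETV1 replicate D 4 of 20 were lower. ELF4, a factor of lymphoid and epithelial cells, read 1170, 1210 and 1220 with 31845_at against 354, 361, 374 and 324, with 379 to 496 on control arrays (1.72, SE 0.10, limma adjusted p = 2.18e-07). ETV7, a repressor induced by interferon, read 378, 475 and 377 with 221680_s_at against 83.2 to 110, and 81.4 to 122 on control arrays (1.88, SE 0.13). The repressor ERF was higher at 1.51. The remaining lower gene besides ETV1 was ETV4, at 253, 280 and 231 with 211603_s_at against 423, 455, 404 and 261, where ETV1 replicate D lay among the arrays labelled ERG. Its mean was -0.49, and the call was lost without ERG-labelled replicate A or C and without ETV1 replicate A, B or C, with means from -0.50 to -0.38. It was also lost with median centring, at -0.12, and with the control arrays in the fit, at -0.48. ETV5 passed in 2 of 4 probe sets, and without ETV1 replicate D in all, with a mean of -0.90. ETS2 went opposite ways, at 681, 765 and 936 with 201328_at against 403 to 794, and 631, 550 and 684 with 201329_s_at against 835 to 1540.

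Chromatin and patterning genes added a few clear cases. PHF19, a Polycomb-associated reader of histone methylation, was higher with 3 probe sets, at 949, 1050 and 1030 with 225533_at against 303 to 318, and 403 to 488 on control arrays (1.64, SE 0.10, limma adjusted p = 2.41e-07). EZH2, the Polycomb methyltransferase, had 1 tested probe set, at 687, 520 and 583 against 226, 210, 188 and 206 (1.45, SE 0.12). PCGF1, of a Polycomb ring complex, was lower at -1.42, and 6 of the 19 listed genes had opposite probe sets. Only PHF19 of that list was called higher, with 2 higher without ERG-labelled replicate B or as deposited and 4 with median centring. HOXB9 read 354, 368 and 268 with 226461_at against 102 to 191 (1.08, SE 0.20), and it was 1 of 2 HOX genes called higher of 4, the other, HOXB7, losing its call without ERG-labelled replicate A or B or ETV1 replicate A or B. Of 9 WNT genes 2 were higher and 1 lower, with the receptor FZD2 at 1.38, the co-receptor LRP6 at 1.08 and the ligand WNT7B at -1.52, and of 10 Notch genes 3 were higher and none lower. Without ERG-labelled replicate A, B or C the higher WNT genes numbered 1, 0 and 0 of 6.

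Many genes gave opposite answers by probe set, and some of the largest differences lie among them. GNAS, the stimulatory G protein alpha subunit, was the extreme. Its 217673_x_at read 11900, 10300 and 11800 on the arrays labelled ERG, 161, 162, 173 and 81.5 on ETV1 arrays, and 130 to 237 on control arrays, a log2 difference of 6.19 (SE 0.22, limma adjusted p = 1.5e-08). Its 217057_s_at read 6.5, 1.08 and 6.88 against 178, 200, 183 and 192 (-3.30, SE 0.13), while 5 bright probe sets of the same gene, such as 200780_x_at at 12900 to 14300 against 10700 to 13000, did not pass (limma adjusted p = 0.204 for that one). ARID1B, of the SWI/SNF remodelling complex, read 1420, 1310 and 790 with 1566990_x_at against 24.6 to 42.3, and 92.3, 147 and 106 with 1566989_at against 1620 to 2140. Those 2 differences were 4.60 and -3.87, and 225184_at stayed at 0.01 (limma adjusted p = 0.943).

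The same held for NUP210, a nuclear pore gene, and NT5E, the enzyme that makes adenosine outside the cell. NUP210 read 95.2, 95.7 and 119 with 212316_at against 622 to 836, and 458, 334 and 508 with 213947_s_at against 50 to 56.6 (-2.68 and 2.69, SE 0.13 and 0.14). NT5E read 69.3, 78.3 and 78.6 with 1553995_a_at against 261, 411, 372 and 217, and 608, 836 and 758 with 227486_at against 265, 207, 247 and 101 (-1.82 and 1.83, SE 0.20 and 0.27). In NT5E both readings lay above the control arrays, which were at 38.5 to 53.1 and 76.3 to 89.7. STX17-DT, a divergent transcript of a syntaxin gene, read 438, 403 and 335 against 3050 to 4030 with 1558688_at, and 147, 179 and 125 against 1.08 to 7.29 with 1558689_a_at. AZI2 and FAXDC2 were similar, with extremes of -2.76 and 3.06 and of -3.82 and 2.98, and FLJ40288 and IGLV1-44 had 2 tested probe sets each that were dim on 1 side.

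**Figure D4:**
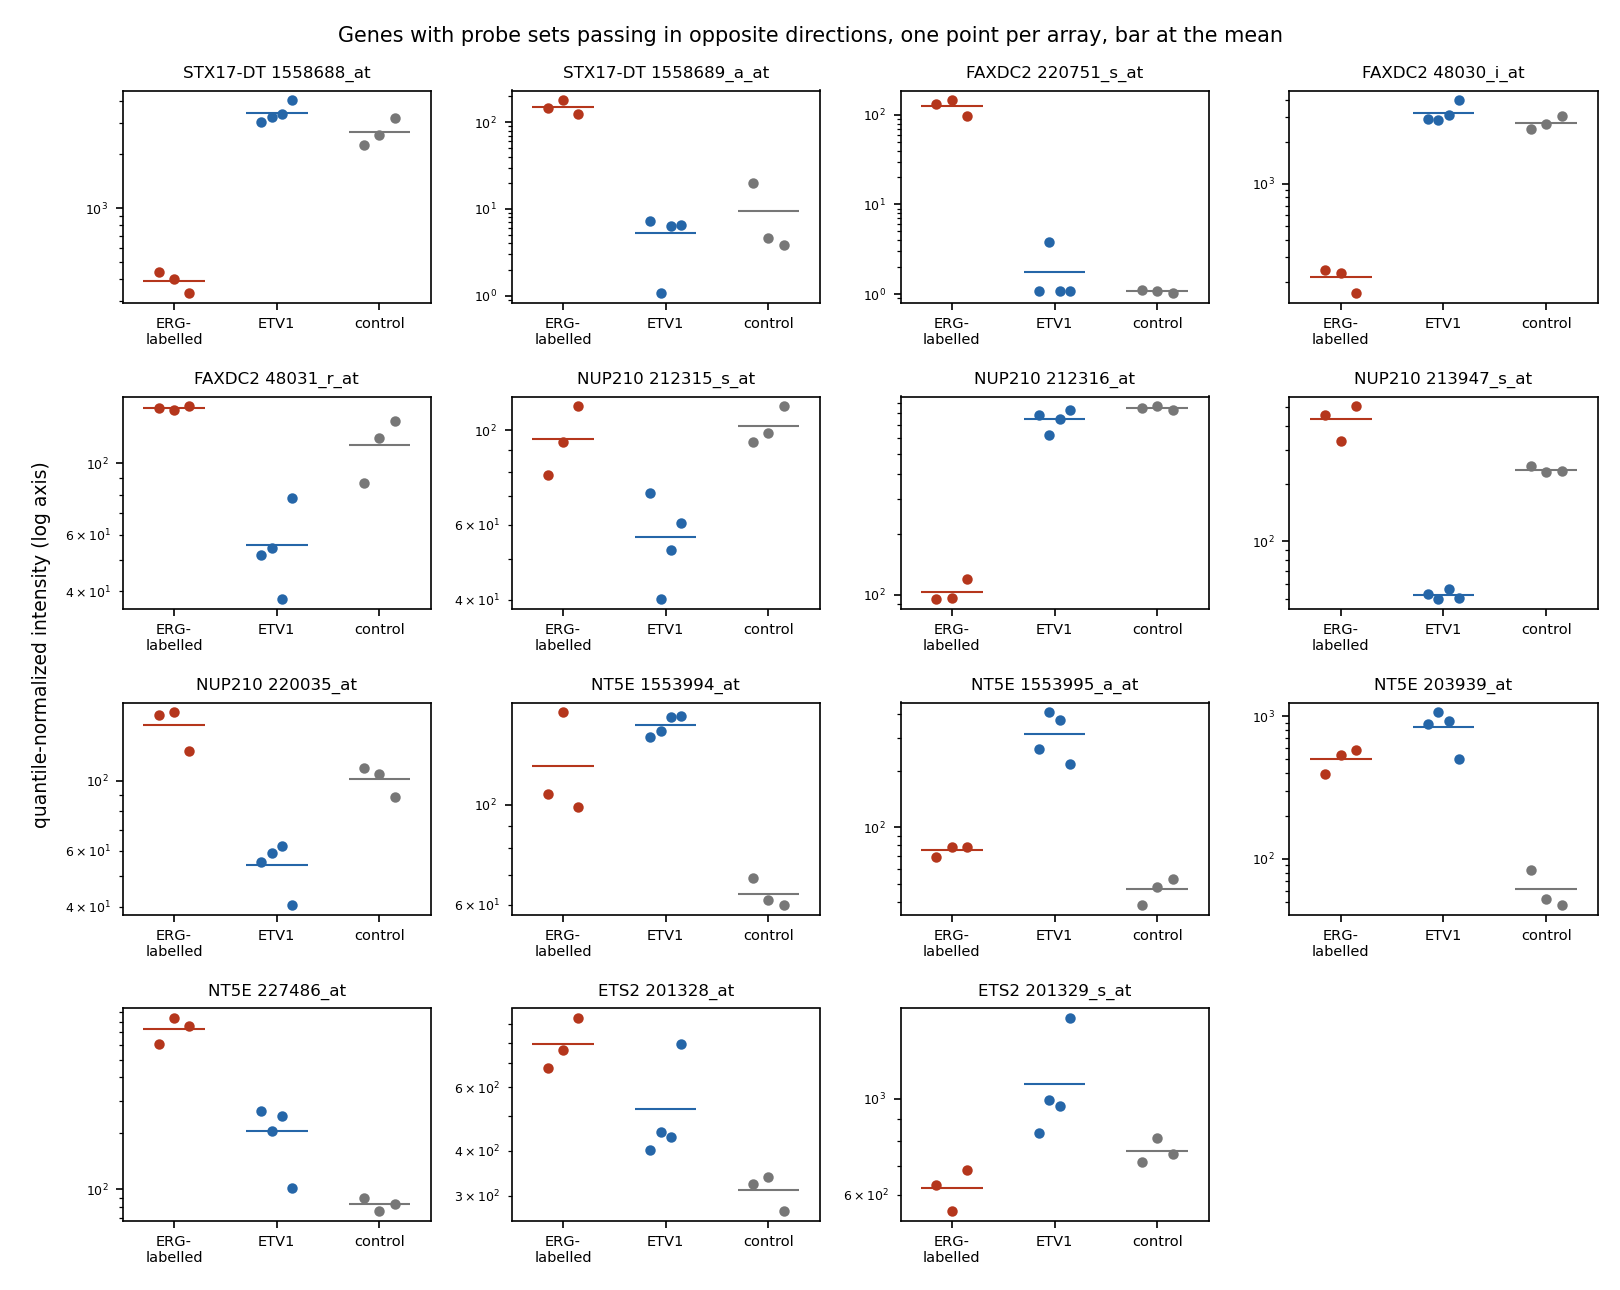
Quantile-normalized intensity (log axis) of every tested probe set of STX17-DT, FAXDC2, NUP210, NT5E and ETS2 on each array, with a bar at each group's mean. Within each gene at least 1 probe set is higher and at least 1 lower on the arrays labelled ERG than on the ETV1 arrays.

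The share of genes with opposite probe sets rose with the number of probe sets, from 22.3% with 2 to 41.4% with 3, 55.6% with 4 and 68.8% with 5 or more. It was 31.1% where all probe sets had the plain name, which marks a design for 1 transcript, against 36.1% in other genes, and 33% where all identifiers had 6 digits, which Affymetrix gave to earlier and mostly better supported sequences, against 40.1%. With genes split by mean level into 4 equal groups, it was 38.8% in the dimmest, then 40.9% and 35.7%, and 23.5% in the brightest. The splits by name, identifier and level did not hold the number of probe sets fixed, so the part of that number in them was not tested. Probe sets with 7-digit identifiers passed lower more often than higher, at 50% against 35.1% of 2359, and those with 6 digits the other way, at 35% against 43.3% of 22626.

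In the 3567 genes with exactly 2 tested probe sets, both passed in the same direction in 1499 and in opposite directions in 796. Across these genes, which are not independent replicates, the 2 differences correlated with Pearson's r of 0.25 and Spearman's rho of 0.26, and the median gap between them was 0.87 on the log2 scale. The comparison of ETV1 with control cells, which shares the 4 ETV1 arrays and was read by the same rule, is given for scale. There 523 of 5892 genes were higher (8.88%), 499 lower (8.47%) and 168 opposite (2.85%). Of 3334 genes with 2 probe sets 710 passed the same way and 49 opposite ways, with an r of 0.65, a rho of 0.58 and a median gap of 0.20.

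**Figure D5:**
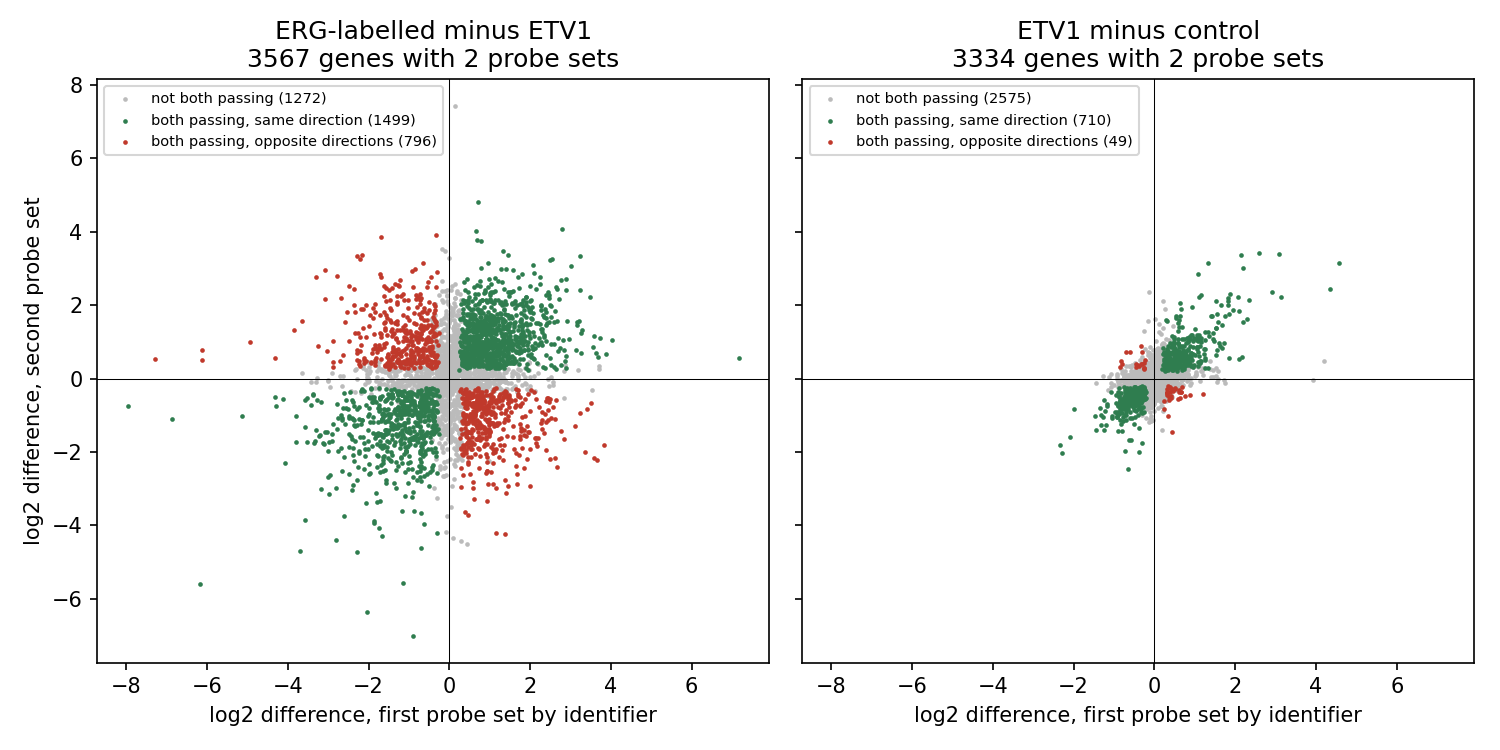
Log2 difference of the first against the second probe set (by identifier) of each gene with exactly 2 tested probe sets, for ERG-labelled minus ETV1 (left, 3567 genes) and ETV1 minus control (right, 3334 genes), coloured by whether both passed. On the left 796 genes lie in the quadrants of opposite sign with both probe sets passing, and on the right 49 do.

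The summed intensity of every marker list was lower on the arrays labelled ERG than on the ETV1 arrays. Over all probe sets naming them, the summed intensity of 12 endothelial markers was 932 to 975 on the arrays labelled ERG and 2550 to 2800 on ETV1 arrays, with 5 genes under the array median on every array, and that of 18 leukocyte markers 985 to 1300 against 1680 to 1910, with 7 such genes. For 12 fibroblast and smooth muscle markers it was 1670 to 2030 against 2280 to 2420 (5 genes under the median), for 15 neuroendocrine and neural markers 7650 to 8820 against 10400 to 10700 (6), for 11 erythroid and megakaryocyte markers 3800 to 4630 against 6020 to 9570 (2), and for 16 hepatic and intestinal markers 936 to 1220 against 2530 to 2790 (7). Basal and luminal epithelial markers were lower too, at 61800 to 70400 against 111000 to 121000 and 22900 to 24400 against 33300 to 33900, with the keratins KRT14 and KRT18 brightest. For these 2 lists control arrays read 68100 to 73200 and 20900 to 21900, so the ETV1 arrays were the high ones. In bulk samples, fewer cells of a type and less RNA per cell cannot be told apart. All samples were of the RWPE-1 line. The endothelial list includes ERG itself, whose tested probe set was lower on the arrays labelled ERG. The part of other cells in the results was not tested.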

How the data were processed

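Affymetrix HG-U133 Plus 2.0 arrays read RNA from 10 cell samples. The authors deposited 1 linear intensity per probe set, with a floor of 1, and the summarisation and normalization behind it are not given in the sources used here. Of 54675 probe sets, 41091 name 1 gene, 1801 several, 11721 none and 62 are controls; 43 symbols were updated from older ones and 6 were unmatched. Deposited intensities of the 7 arrays were quantile-normalized as log2(intensity + 16), and control arrays were mapped onto the same distribution. Differences on this log2 scale understate folds of dim probe sets. Probe sets above the array median on at least 3 arrays (25393, from 13828 genes) were fitted with limma 3.58.1 in R 4.3.3 (lmFit and eBayes, 2 groups, 5 residual degrees of freedom, two-sided). Adjusted p-values are Benjamini-Hochberg over all of them, with a threshold of 0.05. Figures used matplotlib 3.10.9.

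The genes and lists were chosen with earlier results of these data known. Genes described at length are the 15 higher and 15 lower ones with the largest smallest difference on arrays that do not overlap, 2 in each direction per list, 8 with opposite probe sets and a set always named, 140 in all. Other list genes were named after their values were seen. Alternatives covered scaling, pseudocount, filters, probe set type, variance model, threshold, the replicate letter and each array left out. The fit was tested on simulated data. Silencing experiments in other cell lines were not analysed here.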

Additional observations from a re-analysis of the deposited data

Results flagged for a closer look

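Of 140 genes looked at, 24 had 1 ETV1 array standing apart from the other 3, by a gap to the nearest array, as a share of the group's range (Dixon's ratio), past the limit for 4 arrays, and in 22 of them it was replicate D. By chance some groups pass this limit, and levels of different genes on 1 array are not independent. Levels are the mean log2(intensity + 16) over a gene's probe sets. Replicate D was the highest ETV1 array for TIMP3 (9.71 against 8.94 to 9.05, ratio 0.855), RSAD2 (11.2 against 10.43 to 10.49, ratio 0.917), JUND (9.75 against 9.23 to 9.31, ratio 0.849), NEFL (8.45 against 7.43 to 7.54, ratio 0.889) and MYC (12.77 against 12.12 to 12.23, ratio 0.831). It was the lowest for HS3ST1 (6.87 against 8.36 to 8.46, ratio 0.936), JAG1 (9.76 against 10.32 to 10.41, ratio 0.867), FN1 (10.12 against 11.3 to 11.48, ratio 0.867) and SPARC (6.75 against 7.45 to 7.52, ratio 0.919). It also lay lowest for PI3 (8.71 against 9.67 to 9.79, ratio 0.889), IL1B (10 against 10.49 to 10.53, ratio 0.919), CCL5 (6.44 against 7.18 to 7.24, ratio 0.923) and DUSP4 (9.9 against 10.29 to 10.35, ratio 0.849). The same array was lowest for INHBA (8.71 against 10.01 to 10.07, ratio 0.955), PLK3 (8.31 against 8.7 to 8.72, ratio 0.947), BNIP3 (9.99 against 10.52 to 10.56, ratio 0.921) and HSPA5 (12.1 against 12.32 to 12.35, ratio 0.885). It stood lowest as well for GSTO1 (11.49 against 11.83 to 11.88, ratio 0.858), ETV4 (7.91 against 8.52 to 8.54, ratio 0.957), ETV5 (7.65 against 8.56 to 8.67, ratio 0.885) and ETS1 (7.87 against 8.61 to 8.74, ratio 0.854). Replicate D was again lowest for IL13RA2 (10.45 against 11.55 to 11.67, ratio 0.905). The other genes were C1orf53 (6.9 against 6.68 to 6.72, ratio 0.833), where replicate B was highest, and BMP2 (7.15 against 7.23, ratio 0.935), where replicate A was lowest. The cause was not tested.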

How the results depend on the processing

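Against 1173 genes higher, 870 lower and 2267 with opposite probe sets, median centring gave 2064 higher and 444 lower, and no filter on dim probe sets gave 3495 opposite of 10521 genes, a share of 33.2% against 34.7%. A filter at the 75th percentile gave 678, 560 and 854, a filter on all 7 arrays 556 lower and 1271 opposite, and plain probe sets only 599, 423 and 1039. Asking for at least 2-fold in every probe set gave 339, 278 and 664, and averaging the probe sets of each gene 2599 higher and 2294 lower. The filters change how many genes or probe sets are tested, and the cause of the other shifts was not tested. Leaving out 1 array gave 714 to 1167 higher, 750 to 927 lower and 1651 to 2203 opposite, with the fewest higher genes without ERG-labelled replicate A. Same-lettered arrays did not deviate together (r = 0.024, -0.045 and -0.019), and arrays of unlike letters gave -0.056 to 0.05. With so few arrays this cannot show whether the letters pair them. The replicate block gave 1118, 833 and 2163. As deposited, the means of TYMS and RPL29 turned to 0.36 and 0.062. With median centring TYMS turned to 0.79, RSAD2 to 0.21, PFKL to 0.25, RPL29 to 0.49 and NDUFA10 to 0.19. Over the genes named and their alternatives, 2037 values kept direction and call, 114 lost the call, 4 gained it and 7 reversed. Between scalings, 3 called genes crossed sides as deposited and 13 with median centring. Signal near background limits the dim probe sets, whose folds are understated.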
